A study of Arabidopsis thaliana with 24 samples.

Results

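ORA47, AT1G19210, AT4G28140, STZ and WRKY53 are 5 transcription factor genes of Arabidopsis thaliana. Their mean levels in roots were above control 1 h after salt was added, in both genotypes. For AT1G19210, STZ and WRKY53 control and 1 h arrays overlapped. The 5 genes were picked by name from 13355 genes that could be named on the array. The choice came from results of these same arrays, which had shown early wild-type responses and uneven control arrays. The wild-type differences between salt and control, and the spread between control arrays, are therefore given as descriptions with no test. Results of both genotypes were known when the genes were picked, so the mutant p-values below are not independent of that choice. Each gene is read by 1 probe set, a group of short probes whose signals are summarised to 1 value on a log2 scale.

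Roots of hydroponically grown plants were profiled on 24 Affymetrix ATH1 arrays, 3 for each of 8 groups. The double mutant bzip1/bzip53, labelled a knockout of both bZIP transcription factor genes, was sampled untreated (control) and at 1 h, 3 h and 6 h of 150 mM NaCl. Col-0 wild type, the ecotype background that the labels give for both genotypes, was sampled in the same 4 conditions. The title of the series asks how bZIP signalling shapes the metabolic response of roots to salt. The labels give an age of 6 weeks and also call the tissue seedling roots. Mutant and wild-type roots under salt were, by the protocol, collected together late in the light period, and no such time is named for untreated roots. The titles number biological replicates without saying how plants or cultures were divided, so the p-values reflect how far these particular arrays differ, which may be technical.

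ORA47, AT1G19210 and AT4G28140 belong to the AP2/ERF family, plant transcription factors that bind DNA through an AP2 domain and include many regulators of stress and wound responses. ORA47 is known for activating genes of jasmonate synthesis. STZ, also called ZAT10, is a C2H2 zinc finger protein with an EAR repression motif, and its transcript is known to accumulate under salt, cold and drought. WRKY53 binds W-box elements and is known as a regulator of leaf senescence and of stress responses. Many early stress transcription factor genes also respond quickly to touch and wounding.

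Across the whole table, 22746 probe sets were tested and array medians lay between 6.53 and 6.67 (log2). Levels under 5 (log2) were taken as near background, and a difference that starts there is only an apparent size. BZIP53, one of the genes disrupted in the mutant, lay between 8.67 and 9.24 on the 12 mutant arrays, against 10.37 to 11.12 on the 12 wild-type arrays, which fits the genotype labels but leaves signal in the mutant. No probe set was named bZIP1. A listed gene counts as measured only if a probe set carried its name and no other. Among the probe sets tested, 8730 had no name and 503 had several, so a gene not measured here may still be on the array. The root markers measured (3 of 13 listed) were present, with PYK10 between 11.89 and 13.07. The other 2, the root hair expansin genes EXPA7 and EXPA18, were called lower at all 3 times in both genotypes. At 1 h all 3 markers were called lower in both, beside 13.5% (mutant) and 15.4% (wild type) of all probe sets. At 3 h PYK10 was called lower in the mutant alone, and at 6 h it was called higher in both genotypes. All probe sets called lower at 3 h and 6 h were 28.1% and 29.8% (mutant) and 23.5% and 31.1% (wild type). Those called higher at 6 h were 18.1% (mutant) and 16.4% (wild type). EXPA18 read as low as 4.88, near background, at 3 h in the mutant. EXPA18 differed from control by -1.88, -2.49 and -2.02 in the mutant and by -1.69, -1.81 and -2.04 in wild type (1 h, 3 h and 6 h, log2), and the part of root hair transcripts in the results was not tested. The 1 shoot marker measured of 12, RCA, lay between 5.51 and 7.15. On mutant control array 1 a bacterial spike-in control, dap, read 6.23 against 3.02 to 3.16 on the other 23 arrays, and the 25S ribosomal RNA probe sets read 11.93 against 12.52 to 12.71 on the other 5 control arrays. The gap between actin probe sets at the 3′ and 5′ ends of the transcript, a usual check of RNA integrity, was also the widest of the 24 there (3.17, against 2.38 to 3.16 elsewhere). On all 18 salt arrays 25S read 13.03 to 13.47, above every control array. The part of these readings in the salt differences was not tested.

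**Figure D1:**
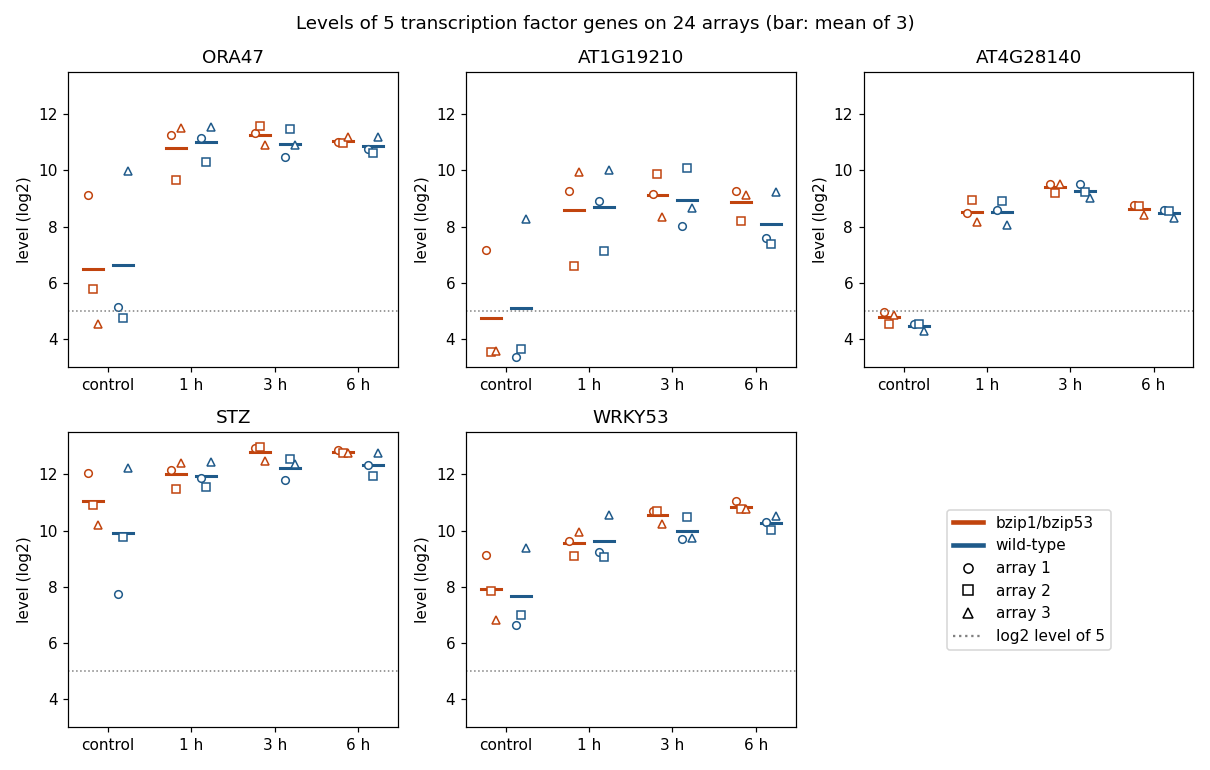
Level (log2) of each of the 5 genes on all 24 arrays, by condition, with bzip1/bzip53 left of wild type and a bar at the mean of 3 arrays. ORA47, AT1G19210, STZ and WRKY53 have 1 control array per genotype far above the lowest, array 1 in the mutant and array 3 in wild type, while the 6 control values of AT4G28140 lie between 4.30 and 4.98.

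ORA47 was low on most control arrays, and every salt array lay far above those low arrays. Its mutant levels (log2, arrays 1, 2 and 3) were 9.13, 5.78 and 4.54 in the control, 11.26, 9.64 and 11.52 at 1 h, 11.33, 11.57 and 10.92 at 3 h, and 11.01, 10.96 and 11.18 at 6 h. Its wild-type levels were 5.15, 4.73 and 9.99 in the control, 11.15, 10.28 and 11.55 at 1 h, 10.48, 11.45 and 10.90 at 3 h, and 10.75, 10.62 and 11.18 at 6 h. Every salt array of either genotype lay above every control array of that genotype, at 1 h by as little as 0.51 (mutant) and 0.30 (wild type). The highest control array stood only 1.68 to 2.14 units (mutant) and 0.865 to 1.01 units (wild type) below the salt means. In the mutant ORA47 rose over control by 4.33 (1 h), 4.79 (3 h) and 4.57 (6 h) (log2, SE 1.04), with limma adjusted p of 0.00432, 0.000714 and 0.00103. The wild-type differences were 4.37, 4.32 and 4.23. Control values of 4.54 (mutant array 3) and 4.73 (wild-type array 2) were near background, so the sizes in both genotypes are in part apparent.

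AT1G19210 had the same arrangement of arrays. Its mutant levels were 7.17, 3.55 and 3.58 in the control, 9.28, 6.60 and 9.93 at 1 h, 9.14, 9.87 and 8.35 at 3 h, and 9.26, 8.21 and 9.12 at 6 h. Its wild-type levels were 3.38, 3.65 and 8.26 in the control, 8.91, 7.12 and 10.02 at 1 h, 8.02, 10.09 and 8.67 at 3 h, and 7.60, 7.39 and 9.23 at 6 h. In both genotypes 2 control arrays were near background and the remaining one lay above the lowest 1 h array, so control and 1 h overlapped. The mutant rise was 3.84 (1 h), 4.35 (3 h) and 4.10 (6 h) (log2, SE 1.17; limma adjusted p 0.0206, 0.0042 and 0.00612), apparent in size because most control values were near background. The wild-type differences were 3.59, 3.83 and 2.98, and at 6 h only 1 of 3 wild-type salt arrays exceeded the high control array.

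AT4G28140 behaved differently, with control arrays close together and no overlap anywhere between control and salt. Its mutant levels were 4.98, 4.53 and 4.85 in the control, 8.49, 8.93 and 8.15 at 1 h, 9.50, 9.19 and 9.52 at 3 h, and 8.78, 8.74 and 8.40 at 6 h. Its wild-type levels were 4.52, 4.53 and 4.30 in the control, 8.59, 8.89 and 8.05 at 1 h, 9.52, 9.24 and 9.0 at 3 h, and 8.59, 8.55 and 8.31 at 6 h. All 6 control values were near background, and in both genotypes the 3 h arrays stood above the 1 h and 6 h arrays. The mutant differences from control were 3.74 (1 h), 4.62 (3 h) and 3.85 (6 h) (log2, SE 0.20; limma adjusted p 4.19e-10, 1.56e-12 and 1.31e-11), again apparent sizes. In wild type they were 4.06, 4.80 and 4.03.

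STZ was well above background on all 6 control arrays, and its control and salt arrays overlapped in part. Its mutant levels were 12.05, 10.91 and 10.19 in the control, 12.14, 11.46 and 12.39 at 1 h, 12.95, 12.95 and 12.49 at 3 h, and 12.86, 12.76 and 12.77 at 6 h. Its wild-type levels were 7.75, 9.77 and 12.23 in the control, 11.88, 11.53 and 12.45 at 1 h, 11.79, 12.54 and 12.37 at 3 h, and 12.33, 11.95 and 12.75 at 6 h. Control array 1 of the mutant and control array 3 of wild type lay within the range of the 1 h arrays, and the 3 wild-type control arrays spanned 4.48 units. In the mutant the difference at 1 h, 0.95 (SE 0.68, limma adjusted p 0.341), did not pass, while those at 3 h and 6 h, 1.75 each (adjusted p 0.0405 and 0.0382), did, about 3.35-fold and 3.36-fold. Each of these last 2 calls was lost without mutant control array 2 or 3 or without any single array of its salt group. The wild-type differences were 2.04, 2.31 and 2.43, and they depend on single control arrays. Without wild-type control array 1 they were 0.95, 1.23 and 1.34, and without array 3 they were 3.19, 3.47 and 3.59.

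WRKY53 had a higher group mean at each later time in both genotypes. Its mutant levels were 9.13, 7.86 and 6.81 in the control, 9.63, 9.09 and 9.96 at 1 h, 10.69, 10.70 and 10.24 at 3 h, and 11.04, 10.76 and 10.75 at 6 h. Its wild-type levels were 6.64, 7.01 and 9.37 in the control, 9.25, 9.05 and 10.54 at 1 h, 9.69, 10.49 and 9.72 at 3 h, and 10.30, 10.01 and 10.52 at 6 h. Neighbouring salt times overlapped array by array in wild type, and control array 1 of the mutant and array 3 of wild type reached the range of the 1 h arrays. The mutant differences from control were 1.63 at 1 h (limma adjusted p 0.042), 2.61 at 3 h (adjusted p 0.000737) and 2.92 at 6 h (adjusted p 0.000229), or 3.09-fold, 6.09-fold and 7.56-fold (SE 0.57, log2). The wild-type differences were 1.94, 2.29 and 2.6.

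By limma, 4 of the 5 genes were called higher in the mutant at 1 h and all 5 at 3 h and at 6 h, where 10.6%, 17.4% and 18.1% of all probe sets were called higher. The median difference of the 5 genes was 3.74, 4.35 and 3.85 (log2), against -0.02, -0.08 and -0.08 over all probe sets. These p-values are not independent of the choice of the genes, since both genotypes' results were known when they were proposed. The 1 h calls of AT1G19210 and WRKY53 were lost without mutant control array 2 or 3 and without mutant 1 h array 1 or 3, with adjusted p between 0.0737 and 0.211. In wild type, 2, 3 and 3 of the 5 genes had every salt array above every control array at 1 h, 3 h and 6 h, beside 13.7%, 16.1% and 18.3% of all probe sets. Without wild-type control array 3 all 5 genes did so at each time.

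Between salt times in the mutant, AT4G28140 was 0.88 higher at 3 h than at 1 h (log2, limma adjusted p 0.00235) and 0.76 lower at 6 h than at 3 h (a difference of -0.76, adjusted p 0.0155). The later drop lost its call without mutant 3 h array 1 or 3, or without mutant 6 h array 3. None of the other 4 genes was called at either step, so 1 of 5 was called at each, with 31.1% and 11.8% of all probe sets called in either direction. WRKY53 differed by 0.98 and 0.31 at these steps, STZ by 0.80 and 0.00, ORA47 by 0.47 and -0.22 and AT1G19210 by 0.51 and -0.26. When the fit held just the 2 groups of the comparison, 3 of the 5 were called at the 3 h step, STZ (adjusted p 0.0385) and WRKY53 (adjusted p 0.0149) joining AT4G28140. The wild-type steps are given as a description. AT4G28140 differed by 0.74 and then by -0.77 there, close to its mutant values. WRKY53 differed by 0.35 and 0.31 in wild type, STZ by 0.28 and 0.12, ORA47 by -0.05 and -0.10 and AT1G19210 by 0.25 and -0.86.

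The variation between control arrays was among the widest on the array. The SD of ORA47 over the 3 mutant control arrays, 2.38, was the largest of all 22746 probe sets, and that of AT1G19210, 2.08, ranked 4, with WRKY53 at 62 and STZ at 132. In wild-type control they ranked 8 (ORA47, SD 2.92), 11 (AT1G19210, SD 2.75), 31 (STZ, SD 2.25) and 113 (WRKY53, SD 1.48). The median SD of all probe sets was 0.132 in mutant control and 0.110 in wild-type control. AT4G28140 had SDs of 0.228 and 0.134 there, ranks 4963 and 8656.

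The same array was the highest for ORA47, AT1G19210, STZ and WRKY53 within each genotype's control. The other 2 arrays were also well apart for STZ in both genotypes and for ORA47 and WRKY53 in the mutant. Mutant control array 1 exceeded the mean of the other 2 mutant control arrays by 3.97 for ORA47, 3.60 for AT1G19210, 1.80 for WRKY53 and 1.49 for STZ (log2). Wild-type control array 3 exceeded the mean of its 2 fellows by 5.04 for ORA47, 4.75 for AT1G19210, 3.47 for STZ and 2.55 for WRKY53. For AT4G28140 the same gaps were 0.28 and -0.23. The replicate number of the high array differs between the genotypes. Mutant control array 1 had dap at 6.23 and 25S at 11.93. Wild-type control array 3 had dap at 3.16 and 25S at 12.58, against 3.13 and 12.71 on wild-type control array 1 and 3.14 and 12.68 on array 2. The part of those readings in the levels of the 4 genes was not tested.

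**Figure D2:**
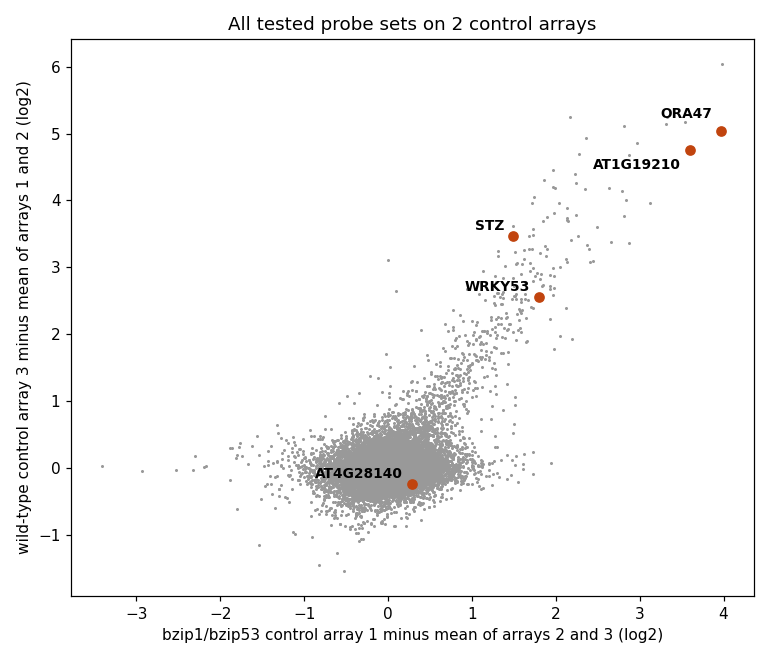
Each grey point is 1 of 22746 probe sets. The x axis gives bzip1/bzip53 control array 1 minus the mean of the other 2 mutant control arrays, and the y axis wild-type control array 3 minus the mean of the other 2 wild-type control arrays (both log2). ORA47, at 3.97 and 5.04, and AT1G19210, at 3.60 and 4.75, lie at the upper right end of a tail that also holds STZ and WRKY53, while AT4G28140 lies in the central cloud.

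The 4 genes were part of a larger group of transcripts. In mutant control array 1, 215 probe sets (0.945%) were at least 1 unit (log2) above both other arrays, and in wild-type control array 3, 370 (1.63%) were. The lists shared 166 probe sets, 77.2% of the mutant list and 44.9% of the wild-type list, with 89 named genes among them. Ordered by the smaller of the 2 gaps, AT1G19210 stood at 2 and ORA47 at 3, followed among named genes by AT3G02840 (5) and CML37 (6), a calmodulin-like gene, singled out after the values were seen. Over all 22746 probe sets the correlation of the 2 gaps was 0.51, a description across probe sets that share these arrays.

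The 4 genes also varied together among the salt arrays. At 1 h, array 2 was the lowest of 3 for ORA47, AT1G19210, STZ and WRKY53 in both genotypes, for AT1G19210 by 2.68 in the mutant and 1.79 in wild type (below array 1, the next lowest). AT4G28140 was highest on that array in both genotypes. Of the 166 probe sets high on both control arrays, 155 (93.4%) were lowest on 1 h array 2 in both genotypes, against 12.7% of all probe sets. Over the 18 salt arrays alone, deviations from the group means correlated at 0.80 to 0.96 among the 4 genes, and at -0.83 to -0.70 between AT4G28140 and each of them. These coefficients are between genes read on the same arrays and carry no p. At 6 h in the mutant the arrays were not in one order, with ORA47 highest on array 3 and AT1G19210, STZ and WRKY53 on array 1.

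**Figure D3:**
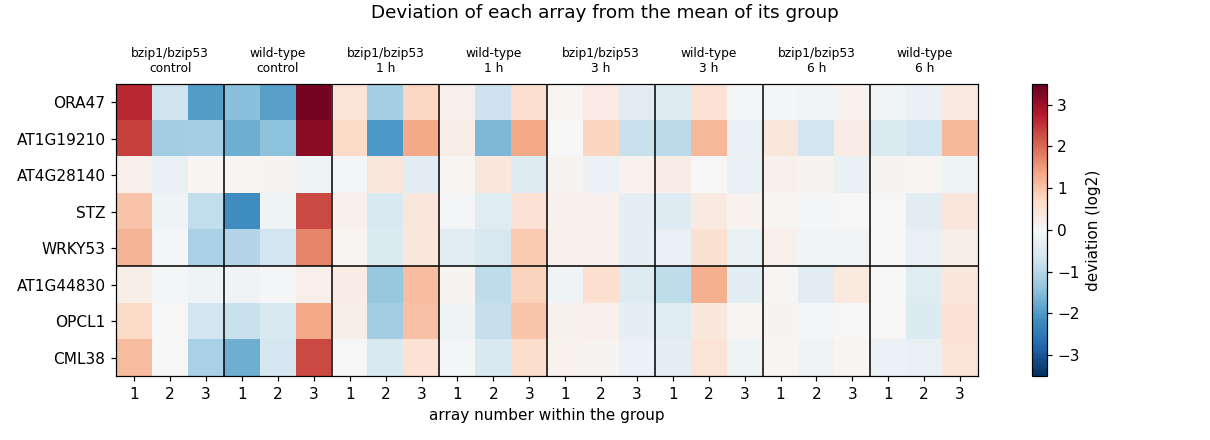
Deviation (log2, colour) of each array from the mean of its group, for the 5 genes above the line and 3 other listed genes below it, chosen after their values were seen. Each condition has bzip1/bzip53 left of wild type. ORA47, AT1G19210, STZ and WRKY53 are red on mutant control array 1 and wild-type control array 3 and blue on 1 h array 2, AT4G28140 is pale in the control and faintly red on 1 h array 2 and blue on 1 h array 3, and AT1G44830 is pale in the control and coloured at 1 h and 3 h.

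Leaving out both high control arrays, a choice made after the data were seen, raised the salt differences of 4 genes and hardly moved the fifth. In the mutant at 1 h, 3 h and 6 h, ORA47 differed from control by 5.65, 6.12 and 5.90, AT1G19210 by 5.04, 5.56 and 5.30, and WRKY53 by 2.23, 3.21 and 3.52 (log2). STZ differed by 1.44, 2.24 and 2.25 and AT4G28140 by 3.83, 4.71 and 3.95. The arrays left out were the highest control arrays of the 4 genes, so larger differences and a smaller SE (0.43 for STZ, against 0.68 with all arrays) follow from leaving them out, and these values are a description with no test. In wild type the 1 h differences became 6.05 for ORA47, 5.17 for AT1G19210, 3.98 for AT4G28140, 3.19 for STZ and 2.79 for WRKY53.

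**Figure D4:**
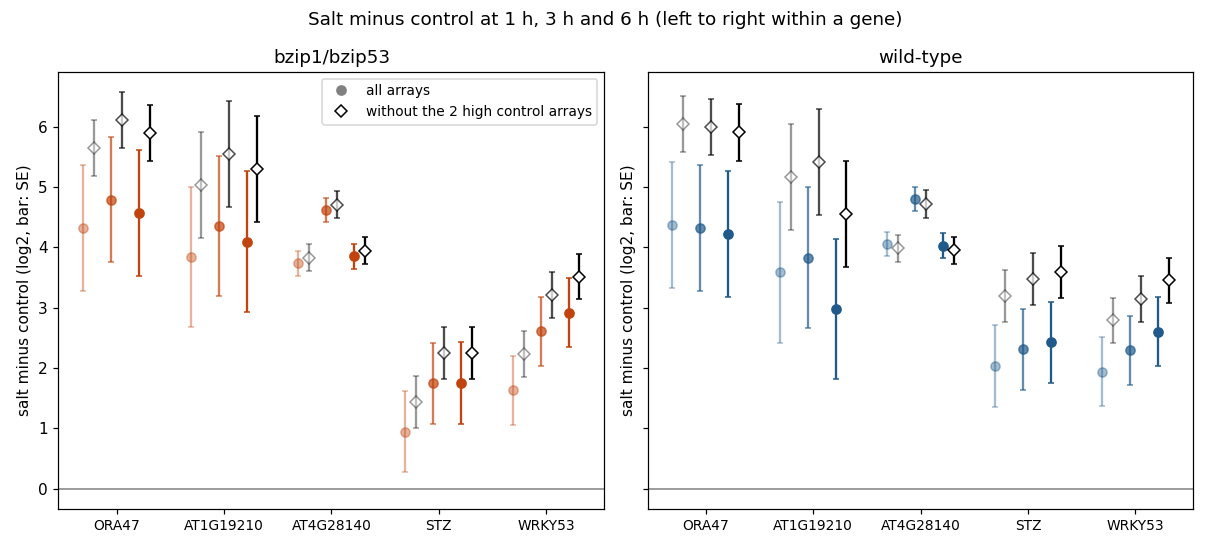
Salt minus control (log2, bars are SE of the fit) at 1 h, 3 h and 6 h for each gene, bzip1/bzip53 in the left panel and wild type in the right. Filled circles use all arrays and open diamonds leave out mutant control array 1 and wild-type control array 3. The diamonds lie above the circles for ORA47 (5.65 against 4.33 in the mutant at 1 h), AT1G19210, STZ and WRKY53, and beside them for AT4G28140.

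The mutant was compared with wild type to ask whether loss of bZIP1 and bZIP53 alters these early genes. By limma none of the 5 was called in the control, at 1 h, 3 h or 6 h, or over the mean of the 4 conditions, and none had an unadjusted p under 0.05 there. The share of all probe sets called in either direction was 0.211%, 0.022%, 10.2%, 0.589% and 3.57% in these comparisons. At 3 h, where many probe sets were called, the differences (mutant minus wild type, log2) ran from 0.15 for AT4G28140 to 0.57 for WRKY53. Over the 4 conditions the difference was 0.05 for ORA47 (95% confidence interval -1.04 to 1.13), 0.14 for AT1G19210 (-1.08 to 1.36) and 0.34 for WRKY53 (-0.25 to 0.93). For STZ it was 0.55 (-0.16 to 1.25) and for AT4G28140, the most precisely measured, 0.16 (-0.05 to 0.37). The upper ends of the intervals of ORA47, AT1G19210, STZ and WRKY53 thus lay between 0.93 and 1.36.

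An exact two-sided permutation test of the same mean difference, with genotype labels permuted within each condition (160000 arrangements, 5 genes tested, unadjusted), gave p = 0.897 for ORA47, 0.809 for AT1G19210, 0.130 for AT4G28140, 0.140 for STZ and 0.263 for WRKY53. STZ and AT4G28140 had the higher mean in the mutant in 4 of 4 conditions and WRKY53 in 3. At 6 h every mutant array of STZ and of WRKY53 lay above every wild-type array, by differences of 0.45 and 0.58 in the means (limma adjusted p 0.824 and 0.715). So 2 of 5 genes had no overlap at 6 h and 0 of 5 in the control, at 1 h and at 3 h, while 15.7%, 14.1%, 9.21% and 36.1% of all probe sets had none in either direction. For STZ the non-overlap rests on a mutant low of 12.76 against a wild-type high of 12.75. Without wild-type control array 3 the mean difference of STZ became 0.84 and was called (adjusted p 0.0454), and without both high control arrays it was 0.71 and was not (adjusted p 0.0624). Wild-type control array 3 was the highest of its group for STZ, so a larger difference follows from leaving it out. Neither value is separate evidence.

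**Figure D5:**
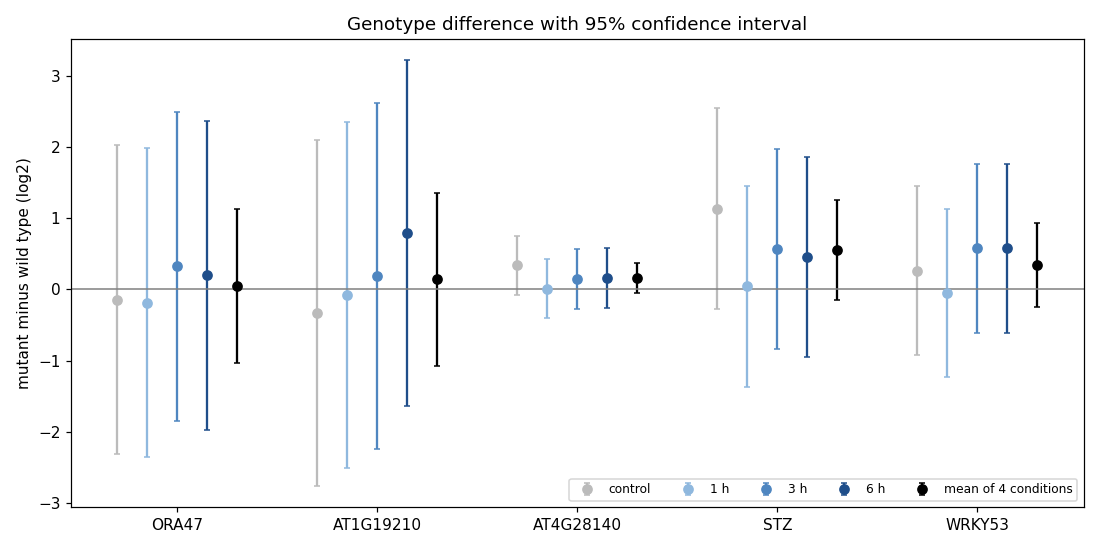
Difference bzip1/bzip53 minus wild type (log2) for each gene in the control, at 1 h, 3 h and 6 h and over their mean, with its 95% confidence interval. Every interval includes 0, and those of AT4G28140 are the narrowest (mean 0.16, -0.05 to 0.37).

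The salt response itself was called different between the genotypes for 0 of the 5 genes at 1 h, 3 h and 6 h by limma. Over all probe sets 0%, 1.46% and 0.0791% were called. At an unadjusted p under 0.05 the count was also 0 of 5, beside 3.65% (830 probe sets), 15.9% and 7.45% of all probe sets. STZ had the largest shortfall in the mutant, with differences of -1.09, -0.57 and -0.68 (log2, SE 0.96), from a mutant control mean of 11.05 ± 0.93 and a wild-type control mean of 9.92 ± 2.25 (SD, n = 3). Without both high control arrays these became -1.75, -1.23 and -1.34 (SE 0.61), still not called (adjusted p 0.9999, 0.417 and 0.802). The count at an unadjusted p above refers to the fit with all arrays only. For AT4G28140 they were -0.32, -0.18 and -0.18 (SE 0.29). AT1G19210 had the largest positive values, 0.25, 0.52 and 1.12 (SE 1.65, adjusted p 0.936 at 6 h). The salt contrasts of a genotype share its control arrays, so the 3 values of a gene are not separate evidence.

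In order of mean level, the 2 control groups stood below all 6 salt groups for each gene, and most neighbours in the order overlapped. For ORA47 the 6 salt groups ran from 10.81 ± 1.02 (mutant 1 h) to 11.27 ± 0.33 (mutant 3 h), with every neighbouring pair overlapping. AT1G19210 ran from 8.07 ± 1.01 (wild type 6 h) to 9.12 ± 0.76 (mutant 3 h), also with overlap at each step. AT4G28140 had 2 gaps, one between control and salt and one between the 1 h and 6 h groups (up to 8.64 ± 0.21) and the 3 h groups (from 9.25 ± 0.26). WRKY53 in the mutant at 6 h (10.85 ± 0.17) was the only other group clear of the one below it.

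Named genes most like each factor over the 24 arrays were picked by Pearson correlation of levels among 13354 other genes, again with no p and with the control arrays, whose gaps were known when the 5 genes were chosen, included. They were AT3G56880 (0.98), EXLA3 (0.97) and AT2G18210 (0.97) for ORA47, and AT5G10695 (0.98), AT5G58680 (0.97) and AT5G38700 (0.97) for AT1G19210. For STZ they were AT4G29780 (0.98), AT2G39650 (0.98) and AT2G22880 (0.98), and for WRKY53 AT3G59080 (0.99), CML37 (0.98) and AT4G36500 (0.98). AT4G28140 had AT1G75860 (0.95), AT1G78070 (0.95) and AT5G19875 (0.95). Among the 5 genes the closest pair was ORA47 and AT1G19210 (0.96), then ORA47 and WRKY53 (0.94) and STZ and WRKY53 (0.93), while AT4G28140 and STZ were least alike (0.68). In deviations from the group means, the nearest genes were CML37 for ORA47 (0.98), AT5G58680 for AT1G19210 (0.98), AT1G15010 for STZ (0.98), AT3G59080 for WRKY53 (0.99) and AT1G54520 for AT4G28140 (0.90).

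Other AP2/ERF stress genes rose too, though not all. Of 51 listed, 7 had a probe set with their name alone. Of the 4 besides the 3 described, 2, 3 and 3 were called higher in the mutant at 1 h, 3 h and 6 h, with none lower. Over all probe sets 10.6%, 17.4% and 18.1% were called higher there. Wild type gave the same counts, where 9.33%, 12.4% and 16.4% of all probe sets were called higher. The median difference of these 4 was 1.26, 2.15 and 2.38 in the mutant. AT1G44830 had mutant control levels of 6.34, 6.11 and 5.99 and wild-type control levels of 5.97, 6.06 and 6.26, and rose by 2.09, 2.23 and 2.4 in the mutant (limma adjusted p 0.00586, 0.00145 and 0.000709). At 1 h its mutant arrays read 8.48, 6.92 and 9.30 and its wild-type arrays 8.57, 7.57 and 9.26, so it had the low 1 h array 2 without the high control arrays. AT1G77640 had both, with mutant control levels of 9.64, 8.68 and 7.96 and wild-type control levels of 6.71, 7.13 and 9.54, and was called at no time (mutant differences 0.03, 0.75 and 0.97).

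The C2H2 zinc finger list split. Of 16 listed, 6 were measured besides STZ, and in both genotypes 1 was called higher and 3 lower at every time. The shares of all probe sets called lower at 1 h, 3 h and 6 h were 13.5%, 28.1% and 29.8% in the mutant and 15.4%, 23.5% and 31.1% in wild type. Those called higher were 10.6%, 17.4% and 18.1% in the mutant and 9.33%, 12.4% and 16.4% in wild type. AT3G53600 (ZAT18) rose from near background by an apparent 3.23, 6.40 and 6.68 in the mutant (limma adjusted p 0.000107, 5.16e-09 and 2.55e-09). AT2G28710 (ZAT17) fell by 1.33, 1.57 and 1.11 in the mutant, and AT2G28200 (ZAT5) and AT5G03510 (ZAT14) were the other 2 that fell. The median of the 6 in the mutant was -0.27 at each time. At 3 h and 6 h STZ thus had the direction of 1 of the 4 other list genes that were called.

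Besides WRKY53, 5 WRKY genes had a probe set with their name alone. Of these, 0, 2 and 3 were called higher in the mutant at 1 h, 3 h and 6 h, and WRKY47 was called lower at each time (-0.63, -0.64 and -0.63). Over all probe sets the mutant shares called higher were 10.6%, 17.4% and 18.1%, and those called lower 13.5%, 28.1% and 29.8%. In wild type 1, 2 and 3 of these 5 genes were called higher, beside 9.33%, 12.4% and 16.4% of all probe sets. There 1 gene was called lower at each time, beside 15.4%, 23.5% and 31.1%. WRKY22, a regulator of immune responses and senescence, differed by 0.83 at 1 h (limma adjusted p 0.0931) and rose 4.34-fold at 3 h and 7.49-fold at 6 h in the mutant. Its mutant control levels were 7.59, 6.61 and 6.08 and its wild-type control levels 6.27, 6.14 and 7.71, with the same high arrays. WRKY6 was not called at 1 h (-0.03, adjusted p 0.931) and rose by 1.50 and 1.71 later in the mutant, and WRKY20 was the third called at 6 h (0.56). At 3 h WRKY6 was the 1 gene of these 5 called between the genotypes, beside 10.2% of all probe sets called in either direction. It read 8.86, 8.57 and 8.55 on mutant arrays and 7.67, 7.88 and 7.55 on wild-type arrays (difference 0.96, limma adjusted p 0.00403).

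Of 29 listed jasmonate genes, only 2 had a probe set with their name alone. OPCL1, which activates jasmonate precursors for chain shortening, rose by 1.67, 2.76 and 2.21 in the mutant (limma adjusted p 0.0302, 0.000294 and 0.00205), with mutant control levels of 9.09, 8.40 and 7.74 and wild-type control levels of 7.25, 7.51 and 9.37. JMT, which makes methyl jasmonate, stayed near background and was not called. Of 13 touch and wound genes 2 were measured, both calmodulin-like. CML38 read 10.91, 9.80 and 8.67 on mutant control arrays and 6.92, 8.04 and 10.95 on wild-type control arrays, and its mutant differences of 1.37, 1.57 and 1.3 were not called (adjusted p 0.149, 0.0624 and 0.118). AT1G76640 (CML39) rose by 3.45, 3.61 and 2.80 in the mutant (adjusted p 0.00177, 0.000429 and 0.00367) from control levels of 5.50, 4.59 and 4.40, against 4.37, 4.28 and 6.53 in wild type. In wild type 2, 2 and 1 of these 2 genes were called higher at 1 h, 3 h and 6 h. There 9.33%, 12.4% and 16.4% of all probe sets were called higher. Both were highest on the same 2 control arrays as the 4 factors. The part of touch or wounding in those arrays was not tested.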

How the data were processed

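The authors deposited 1 log2 value per probe set and array, a scale read from the span of 2.46 to 14.04. RMA, affy and limma are the tools, and TAIR9 the build, per the submitters' processing notes, where versions, order and settings are not given. RMA equalises arrays, so absolute shifts in total RNA are not seen. Detection calls and scanner files were not used here.

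Of 22810 probe sets, 64 control sets were left out. Names came from the platform's gene table, updated through a RefSeq gene table. All 24 arrays entered 1 limma fit (3.58.1, R 4.3.3) of 8 group means, two-sided, with Benjamini-Hochberg adjustment over 22746 probe sets. A call is an adjusted p under 0.05. The fit was tested on simulated data, with effects set in mutant 3 h and read over control, over wild type and as difference of responses. Effects of 0.5 (log2) were recovered for 58.2%, 56.7% and 23.9%, and those of 1 for 92.5%, 94.0% and 83.6%. False calls made up 7.30%, 2.92% and 2.17% of the calls. Simulated noise had the same SD in every group, unlike the control arrays of the 4 uneven genes. The members, gene lists and tests were chosen with earlier results of these data known. Named genes were the members, the 3 most like each in level and in deviation, up to 5 of each list by mean level, and BZIP53. Promoter motifs were planned and not analysed here.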

Additional observations from a re-analysis of the deposited data

How the results depend on the processing

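Of 1435 values of the 5 genes recomputed under alternatives, none reversed a call, 33 lost one, 5 gained one, 31 wild-type values moved by more than the replicate SD, and 89 changed sign with no call on either side. In the mutant at 1 h, the count called higher (4) was 2 with a fit of just the 2 groups and at adjusted p under 0.01, 3 with a robust trended variance prior (WRKY53 at adjusted p 0.0699), 5 with array weights (STZ at 0.0155), and 2 to 4 without single arrays. At 3 h and 6 h (5) it was 4 with that prior (STZ at 0.0675 and 0.0640), 4 at adjusted p under 0.01 (STZ at 0.0405 and 0.0382), and 4 to 5 without single arrays. At the 3 h minus 1 h step (1 called) it was 3 with such a fit and 0 with a fold of at least 2 required. At 6 h minus 3 h (1 called) it was 0 at adjusted p under 0.01 and with that fold, and 0 to 1 without single arrays. For the genotype mean (0 called) it was 0 to 1 without single arrays, the 1 being STZ. In wild type, genes with every salt array above control (2, 3 and 3) numbered 5 without both high control arrays, and 2 to 5, 3 to 5 and 3 to 5 without single arrays. Where no array was left out and no limit tightened, the cause was not tested. Same-numbered arrays of the genotypes correlated in their deviations by 0.18, 0.70 and 0.72 at 1 h, but by -0.40, 0.21 and -0.54 in the control, 0.11, 0.26 and -0.15 at 3 h and 0.01, -0.06 and -0.16 at 6 h. Not every pair exceeds 0.1, so the numbers were not taken as pairs. With the number as a replicate block, counts called were 4, 5 and 5 at 1 h, 3 h and 6 h in the mutant, 1 and 1 at the later steps, and 0 in each genotype comparison. Such a block fits the same effect of a number in all conditions, so it does not test pairing at 1 h alone. Each gene has 1 probe set, so another could not be tried. Counts over all probe sets shift too, as from 2400 to 605 called higher in the mutant at 1 h when a fold of 2 is required. Signal near background limits AT1G19210 and AT4G28140 in the control. It also limits ORA47 on mutant control array 3 (4.54) and wild-type control array 2 (4.73).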
